A study of Mus musculus with 5 samples.

Results

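Genes for 10 proteins of the extracellular matrix were followed through the 5 RNA sequencing libraries of this mouse series, the matricellular proteins together with fibronectin and the elastic fibre proteins. The set was taken by gene symbol from the deposited count table and held Spp1, Sparc, Postn, Thbs1, Thbs2, Tnc, Cthrc1, Fn1, Fbn1 and Eln, 10 of 34970 symbols, and all 10 were found. The groups had 1 library each, and the genotype given for every one was wild type. MCC is the labels' short name for a myeloid-like cell complex, and the series title names the direct reprogramming of fibroblasts to macrophages; the sources used here do not say how the MCC cells were made. MEF stands for mouse embryonic fibroblasts, the connective tissue cells of the embryo, and iPSC for induced pluripotent stem cells. BM was bone marrow. PB was labelled as plasma blood cells and described in the design text as CD45+, CD45 being the surface protein of leukocytes. Strain, age, sex, passage and feeder cells were not given.

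Matricellular proteins are secreted into the matrix, where they bind cell surface receptors and growth factors and change how cells attach, rather than bearing load themselves. Fibronectin, by contrast, is a fibre-forming adhesive protein that cells assemble through integrins, and fibrillin microfibrils with their elastin core give tissues recoil. Fibroblasts make most of these proteins in connective tissue, but several also come from blood cells: osteopontin is secreted by macrophages, and thrombospondin-1 is stored in platelets.

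Levels are given as CPM, read counts divided by the library size and set to a common scale after TMM normalization, and each ratio is followed by its exact 95% interval. These intervals cover counting error only. With 1 library per group nothing checks the differences against replicates and p-values are left out, so each difference is one between these libraries. Where a gene had 0 reads, 3 counts in that library stood in for it, and the ratio depends on that floor. The interval was still computed from the reads as counted. In bulk RNA, fewer cells of a type and less RNA per cell cannot be told apart.

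Total counts ranged from 30078366 to 47557598, and the 10 genes took 1.498% of all counts in MCC; the share was 2.41% in MEF, 0.903% in iPSC, 0.137% in BM and 0.185% in PB. Of 12 macrophage markers, 12 reached 5 CPM in MCC, against 2 in MEF, 2 in iPSC, 11 in BM and 7 in PB, and their summed level was 14211 CPM in MCC against 132 CPM in MEF. Of 10 fibroblast markers, all 10 did so in both MCC and MEF, 6 in iPSC, 4 in BM and 1 in PB, with sums of 28182 CPM in MCC and 19199 CPM in MEF. MCC thus held high levels of both marker sets, and which of its cells carried a transcript was not tested. Of 8 pluripotency markers, 8 reached 5 CPM in iPSC and 1, Sox2 at 15.1 CPM, in MCC. Of 7 erythroid markers, 6 reached 5 CPM in PB and 7 in BM. Their sums were 94499 CPM in PB, 11471.5 CPM in BM, 11.8 CPM in MCC, 0.486 CPM in MEF and 0.650 CPM in iPSC. PB thus held red cell transcripts at a high level, although it was described as CD45+. The library code of PB stands apart from the other 4, so PB and a possible batch cannot be told apart.

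Spp1 encodes osteopontin, a phosphorylated ligand of integrins and CD44 made by macrophages and bone cells. It stood at 5496 CPM in MCC, 1956 CPM in MEF, 680.3 CPM in iPSC, 17.3 CPM in BM and 1.44 CPM in PB. Its level was highest in MCC, where only 6 genes had a higher CPM per kilobase of exon among the 33782 genes with a length. By the same measure it ranked 35th in MEF and 96th in iPSC. The macrophage marker Gpnmb, known to accompany osteopontin in lipid-laden macrophages, was at 567 CPM in MCC against 120.3 CPM in MEF. It stood at 4.29 CPM in iPSC, 0.982 CPM in BM and 0.670 CPM in PB. Of the 12 macrophage markers only 2, Gpnmb among them, reached 5 CPM in MEF, whereas 11 did so in BM, where Spp1 was low. Unlike Gpnmb and Spp1, the markers Lyz2 and Csf1r were both at 1.57 CPM in MEF. In BM they stood at 6849 and 246 CPM. Gpnmb thus does not stand for the macrophage markers as a set, and which cells carried Spp1 was not tested.

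Sparc encodes osteonectin, a collagen-binding protein that guides collagen fibre formation. Its level was 3986 CPM in MCC, 5164 CPM in MEF, 1127 CPM in iPSC, 30.6 CPM in BM and 0.770 CPM in PB. Sparc was high in MCC, MEF and iPSC and far lower in both native samples.

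Postn encodes periostin, a protein of activated fibroblasts and periosteum that assists collagen crosslinking. It stood at 1599 CPM in MCC, 3152 CPM in MEF, 1.01 CPM in iPSC, 0.417 CPM in BM and 0.134 CPM in PB. The last 3 values rest on 53, 17 and 4 reads. Periostin transcript was therefore abundant in MCC and MEF and at a trace in the other 3 libraries, with no level in between. Cthrc1, which encodes a secreted protein of collagen-producing cells, was the lowest of the set in MEF after Eln, at 88.4 CPM, with 13.3 CPM in MCC, 4.94 CPM in iPSC, 1 read in BM and 0 reads in PB.

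The thrombospondin genes Thbs1 and Thbs2 encode close relatives, both inhibitors of blood vessel growth that bind CD36 and CD47. Thbs1 stood at 2078 CPM in MCC, 4741 CPM in MEF, 3819.6 CPM in iPSC, 165 CPM in BM and 1179 CPM in PB. Thbs2 was at 473 CPM in MCC, 1160.3 CPM in MEF, 3.08 CPM in iPSC, 0.884 CPM in BM and 0.100 CPM in PB. Thbs1 was present in every library, whereas Thbs2 was high only in MCC and MEF of these 5. Per kilobase of exon, the level of Thbs1 over that of Thbs2 was 5.06 in MCC and 4.71 in MEF, a nearly constant ratio. It was 1430.0 in iPSC, 216 in BM and 13534 in PB. In BM and PB it rests on 36 and 3 reads of Thbs2.

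Tnc encodes tenascin-C, a large anti-adhesive protein of embryonic and healing tissue. It was at 226 CPM in MCC, 2289 CPM in MEF, 42.4 CPM in iPSC, 21.2 CPM in BM and 0.0670 CPM, or 2 reads, in PB. MEF stood well above every other library for this gene. Fn1, which encodes fibronectin, was at 1704 CPM in MCC, 6019 CPM in MEF, 1345 CPM in iPSC, 1132 CPM in BM and 678 CPM in PB. Fibronectin was the most even of the set, its lowest library, PB, standing at 11.3% of its highest, MEF. Counts per gene do not separate the splice forms of fibronectin made by liver and by connective tissue cells.

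Fbn1 encodes fibrillin-1, the main protein of microfibrils, and Eln encodes elastin. Fbn1 stood at 796 CPM in MCC, 1324 CPM in MEF, 541 CPM in iPSC, 7.29 CPM in BM and 0.234 CPM in PB. Eln was at 113 CPM in MCC, 25.2 CPM in MEF, 3.998 CPM in iPSC, 0.368 CPM in BM and 0.0335 CPM in PB. Elastin shared with osteopontin a maximum in MCC; Thbs1, Sparc, Postn, Thbs2, Tnc, Cthrc1, Fn1 and Fbn1 all had theirs in MEF, except that Thbs1 was slightly higher in iPSC on total counts alone. For each gene the 5 libraries could be put in order with counting intervals that excluded a ratio of 1 between neighbours, except for Cthrc1 in BM and PB, at 1 and 0 reads. On total counts alone the order of Fn1 in MCC and iPSC, and of Thbs1 in iPSC and MEF, turned round.

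**Figure D1:**
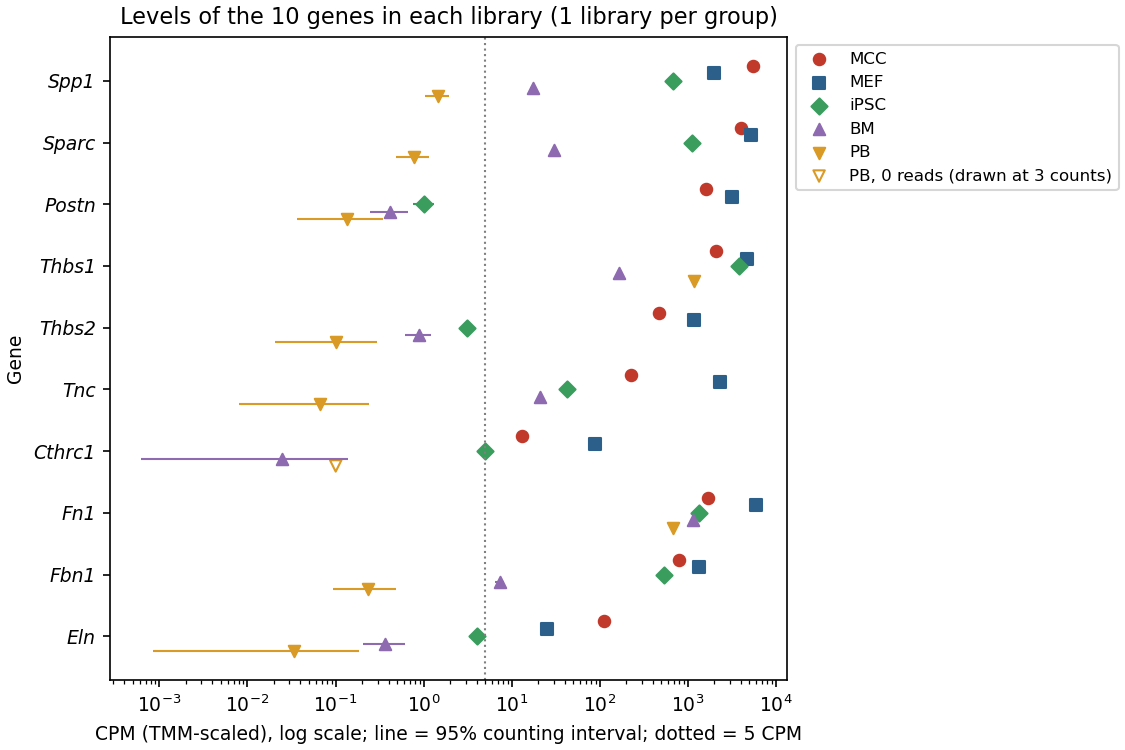
Level of each gene (rows) in CPM on a log axis, with 1 point per library and its 95% counting interval as a line; the open symbol marks 0 reads, drawn at 3 counts, and the dotted line 5 CPM. Spp1 and Eln are highest in MCC and the other 8 genes in MEF (Thbs1 in iPSC on total counts alone), Postn and Thbs2 are at 1.01 and 3.08 CPM in iPSC, and Thbs1 and Fn1 are the only genes above 100 CPM in PB.

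Promoter sequence is shown for the members that were matched in the RefSeq table and whose RefSeq start lay within 27 bases of the 5′ end of the GENCODE gene, to set the sequence beside genes whose levels ranged widely between libraries. Of the 10 members 6 were matched, and the windows of Sparc and Fbn1, whose starts lay 3103 and 1555 bases inside the GENCODE gene, are not printed. Each sequence is the 250 bases before the start, 5′ to 3′ on the gene's strand, from RefSeq on GRCm38.p6, the assembly also named mm10. The windows are chr5:104434861-104435110 on the plus strand for Spp1, chr3:54360857-54361106 on the plus strand for Postn, chr17:14694263-14694512 on the minus strand for Thbs2 and chr4:64047016-64047265 on the minus strand for Tnc. Capitals mark any match, on either strand, to 6 motifs. Searched were the promoter elements TATAAA, also called the TATA box, CCAAT, and GGGCGG, a GC box. The factor motifs were TGANTCA for AP-1, GGAATG for TEAD proteins and GAGGAA, the core of the PU.1 motif.
Spp1: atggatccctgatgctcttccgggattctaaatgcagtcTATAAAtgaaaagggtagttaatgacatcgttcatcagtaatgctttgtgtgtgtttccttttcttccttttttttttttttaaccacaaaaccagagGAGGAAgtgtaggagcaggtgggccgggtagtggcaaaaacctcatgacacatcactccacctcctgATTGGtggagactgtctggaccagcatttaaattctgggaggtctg
Postn: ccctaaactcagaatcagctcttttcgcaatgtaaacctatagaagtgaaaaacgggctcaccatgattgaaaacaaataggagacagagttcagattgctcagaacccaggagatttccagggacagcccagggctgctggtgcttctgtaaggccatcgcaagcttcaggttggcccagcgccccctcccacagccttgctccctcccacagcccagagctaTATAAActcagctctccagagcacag
Thbs2: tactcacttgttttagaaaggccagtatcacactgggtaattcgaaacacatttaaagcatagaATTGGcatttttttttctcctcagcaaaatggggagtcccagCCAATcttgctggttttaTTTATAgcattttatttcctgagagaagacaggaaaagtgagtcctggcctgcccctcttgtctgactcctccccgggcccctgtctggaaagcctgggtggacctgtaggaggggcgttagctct
Tnc: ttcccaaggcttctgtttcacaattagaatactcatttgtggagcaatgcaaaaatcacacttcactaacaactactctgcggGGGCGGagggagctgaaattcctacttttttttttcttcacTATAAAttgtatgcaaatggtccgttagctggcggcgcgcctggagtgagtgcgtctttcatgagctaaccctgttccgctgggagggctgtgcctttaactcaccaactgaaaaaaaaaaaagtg
TATAAA or its complement was in all 4 windows printed, whereas the matched windows of Sparc and Fbn1, not printed, had 0 matches to it. The motif was found in 12.4% of the 32851 windows of the same length, taken without the limit on the start. Its first letter stood 26 bases before the start in Postn, 126 in Thbs2 and Tnc, and 211 in Spp1. CCAAT, found in 33.85% of all windows, was present in Spp1 and Thbs2, GGGCGG (32.7%) in Tnc, and GAGGAA (23.25%) in Spp1. No match to TGANTCA (6.75%) or GGAATG (12.6%) was in these 4 windows. No motifs overlapped one another here, and a match describes letters and is no sign of binding.

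The first comparison set MCC against MEF, the cell type the series title gives as the starting point. Elastin was higher in MCC, tenascin-C and Cthrc1 were lower, and the other 7 genes differed by less than the rule used here, a ratio of at least 4-fold with at least 5 CPM in the higher library. Eln was 4.47-fold (4.18 to 4.77) higher at 113 CPM against 25.2 CPM. Tnc was 10.1-fold (9.90 to 10.3) lower at 226 CPM against 2289 CPM, and Cthrc1 6.67-fold (6.10 to 7.29) lower at 13.3 CPM against 88.4 CPM. Thus 1 of 10 was higher and 2 were lower, beside 8.05% of the 11720 genes tested that were higher and 2.71% that were lower, 10.8% in all.

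Within the band of less than 4-fold, the genes were not level. Spp1 was 2.81-fold (2.79 to 2.83) higher in MCC, and Fn1 3.53-fold (3.50 to 3.56) lower. Thbs2 was 2.45-fold (2.41 to 2.49) and Thbs1 2.28-fold (2.26 to 2.30) lower, the thrombospondins thus keeping close to the same ratio. Postn was 1.97-fold (1.95 to 1.99), Fbn1 1.66-fold (1.64 to 1.69) and Sparc 1.30-fold (1.29 to 1.30) lower. Of the 10 members 8 lay below a ratio of 1 and 2 above it, and the median log2 ratio of the 10 was -1.08, beside -0.01 over all genes tested. The 8 contractile markers moved in the same direction as Tnc and Fn1, with 4 of 8 at 5 CPM in MCC and 8 of 8 in MEF and sums of 1186 CPM against 10401 CPM; their part in the result was not tested.

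Receptors for these proteins differed by gene between MCC and MEF. Of 18 integrin and other receptor genes, 3 passed on the higher side in MCC and 2 on the lower. The median log2 ratio was -0.58 over the 16 tested. Over all genes tested, 8.05% passed as higher and 2.71% as lower, 10.8% in all. Higher were Stab1, a scavenger receptor that takes up Sparc protein, at 235 CPM against 0.277 CPM, Itga4, an integrin subunit of leukocytes, at 28.95 CPM against 6.98 CPM, and Cd36, a thrombospondin receptor, at 5.32 CPM against 0.0925 CPM. Lower were the fibronectin receptor subunit Itga5, at 83.9 CPM against 463 CPM, and Itga8 at 2.13 CPM against 8.79 CPM. These 5 are all of the receptor genes that passed. The most abundant receptor genes in both libraries were Lrp1, an endocytic receptor, at 1186 CPM in MCC against 1431 CPM in MEF, and the integrin subunit Itgb1, at 535 CPM in MCC against 1701 CPM in MEF.

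Genes of fibre assembly and crosslinking stayed mostly within 4-fold of MEF, as did the genes tested as a whole. Over all of those, 8.05% were higher and 2.71% lower, 10.8% in all. Of 21, 1 was higher in MCC, Efemp1, a fibulin, at 556 CPM against 36.6 CPM, and 1 was lower, the crosslinking enzyme gene Loxl3, at 58.4 CPM against 297 CPM; the median log2 ratio was 0.18. The fibulin gene Fbln2 had 1303 CPM in MCC against 3117 CPM in MEF, and Lox, which encodes lysyl oxidase, the enzyme that crosslinks elastin and collagen, at 984 CPM in MCC against 1772 CPM in MEF. Of 22 relatives of the members, 2 were higher in MCC, Ccn3 at 258 CPM against 27.8 CPM and Tnxb at 35.9 CPM against 1.99 CPM. Lower were 4, the matricellular genes Ccn2 at 4.26 CPM against 486 CPM and Ccn4 at 54.4 CPM against 477 CPM, with Sparcl1 and Thbs4. Fstl1, a distant relative of Sparc, was at 1568 CPM in MCC against 1250.1 CPM in MEF. The list as a whole had a median log2 ratio of -1.01 over 13 tested genes.

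Proteases and the TGF-beta pathway, which induces several of these matrix genes in fibroblasts, were read the same way. The shares over all genes tested were again 8.05% higher and 2.71% lower. Of 17 protease and inhibitor genes, 2 were higher in MCC, the cathepsin genes Ctsb at 5942 CPM against 790.3 CPM and Ctss at 650 CPM against 0.116 CPM, and 1 was lower, the collagenase gene Mmp13. Timp2, an inhibitor of metalloproteinases, was at 1052 CPM in MCC against 548 CPM in MEF, and Timp1 at 192 CPM in MCC against 609.8 CPM in MEF. Of 16 TGF-beta pathway genes, 2 passed on the higher side and 4 on the lower, the median log2 ratio being -0.61. The receptor gene Tgfbr2 had 552 CPM in MCC against 132 CPM in MEF, and Tgfbr3 at 182 CPM in MCC against 39.3 CPM in MEF. Among those lower in MCC was the ligand gene Tgfb3, at 24.8 CPM against 182 CPM. The feedback genes Smad7 and Skil were also lower, at 5.97 and 11.1 CPM in MCC against 43.96 and 70.8 CPM in MEF.

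Against iPSC, MCC had 5 of the 10 genes past 4-fold on the higher side and 0 on the lower, beside 11.3% of 12442 tested genes higher and 9.77% lower, 21.1% in all. Postn was 1577-fold (1205 to 2105) higher and Thbs2 154-fold (132 to 181) higher. Eln was 28.1-fold (24.5 to 32.5), Spp1 8.08-fold (7.99 to 8.17) and Tnc 5.34-fold (5.10 to 5.60) higher. Short of the rule were Sparc at 3.54-fold (3.50 to 3.57), Cthrc1 at 2.69-fold (2.32 to 3.12) and Fbn1 at 1.47-fold (1.45 to 1.496) higher. Fn1 was 1.27-fold (1.25 to 1.28) higher, a direction that turned when library sizes were taken from total counts alone, and Thbs1 was 1.84-fold (1.82 to 1.85) lower. The median log2 ratio of the set was 2.12, beside 0.14 for all genes tested.

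Of the companion genes, those of fibre assembly stood apart most from iPSC in number, 16 of 21 higher in MCC and 1 lower. Their median log2 ratio was 4.55. Over all genes tested, 11.3% were higher and 9.77% lower. Lox was at 984 CPM in MCC against 7.54 CPM in iPSC, 131-fold (118 to 144) higher, and Fbln2 at 1303 CPM against 134 CPM. Loxl4 was the 1 lower gene, at 15.2 CPM against 62.0 CPM, and Ltbp4, which binds latent TGF-beta, was close in both, at 59.9 CPM in MCC against 70.7 CPM in iPSC. Of the 17 proteases and inhibitors 8 were higher and 0 lower, of the 22 relatives 6 were higher and 3 lower, of the 18 receptors 4 were higher and 0 lower, and of the 16 TGF-beta pathway genes 4 were higher and 3 lower. Ccn1, a matricellular gene, had 231 CPM in MCC against 283 CPM in iPSC.

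**Figure D2:**
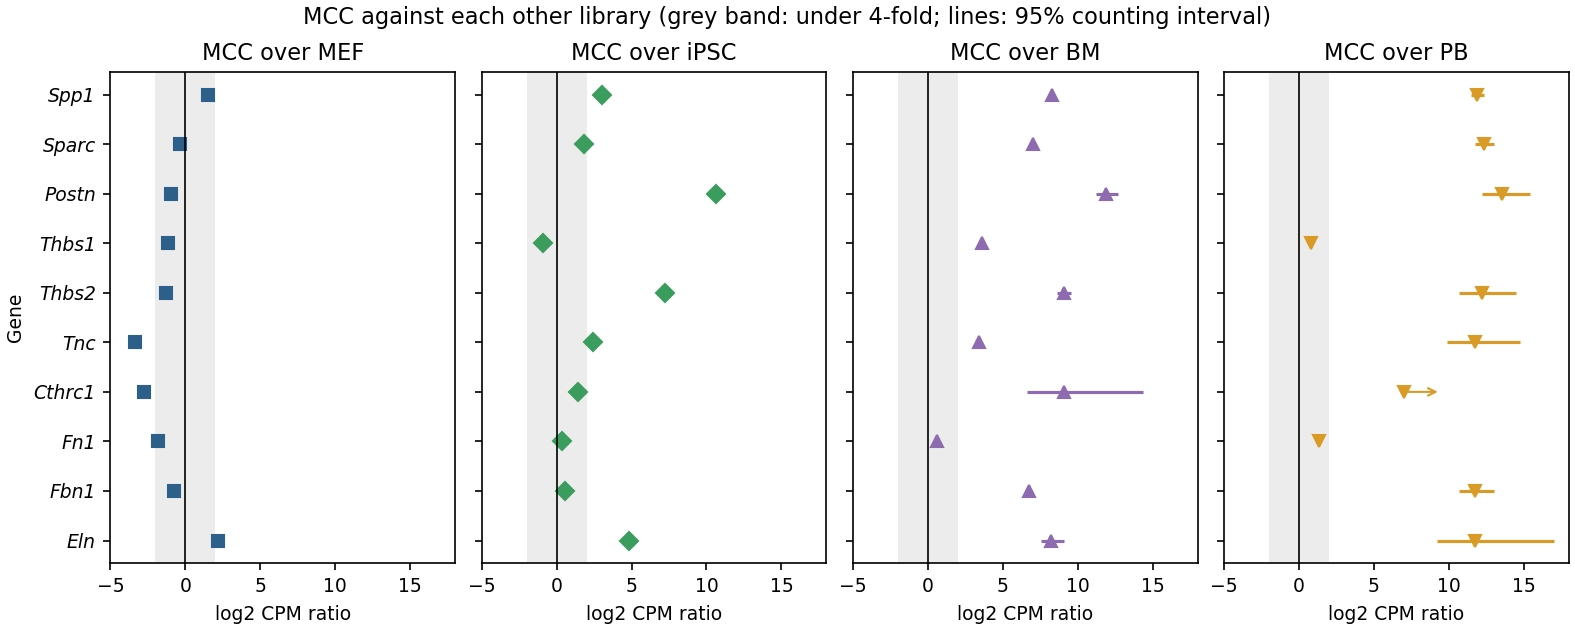
log2 ratio of the CPM of MCC over each other library for the 10 genes, with the 95% counting interval as a line, an arrow where the interval has no upper limit and a grey band for ratios under 4-fold. Against MEF the points lie from -3.34 (Tnc) to 2.16 (Eln), whereas against BM and PB all lie above 0, with Fn1 and, in PB, Thbs1 inside the band.

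Bone marrow, the tissue in which monocytes and other blood cells form, was compared next. All members but fibronectin were at least 4-fold higher in MCC, 9 of 10, with 0 lower, beside 15.6% of 12427 tested genes higher and 13.5% lower, 29.1% in all. The median log2 ratio was 7.26, with counts under 3 set to 3, beside 0.11 over all genes tested. Postn was 3831-fold (2393 to 6577) higher, Thbs2 536-fold (387 to 765) and Spp1 318-fold (295 to 342) higher. Eln was 306-fold (185 to 547), Sparc 130.2-fold (123 to 138) and Fbn1 109-fold (97.4 to 123) higher. The closest were Thbs1 at 12.6-fold (12.3 to 12.9), Tnc at 10.7-fold (9.97 to 11.5) and Fn1 at 1.51-fold (1.49 to 1.52) higher. Cthrc1 had 573 reads in MCC and 1 in BM, a ratio of 540.2 (96.6 to 21374).

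Markers of marrow stroma were present in BM but were not particular to it. Of 8 such markers, 5 reached 5 CPM in BM, 5 in MCC, 5 in MEF, 3 in iPSC and 0 in PB. Their sums were 239 CPM in BM, led by the chemokine gene Cxcl12 at 197 CPM, 1152 CPM in MCC and 683 CPM in MEF. Of 7 markers of bone-forming cells 2 reached 5 CPM in BM. Of these, Ibsp stood at 13.3 CPM in BM and at 0 to 2 reads in each other library, whereas Runx2 reached 5 CPM in all 5 libraries, with 75.3 CPM in PB and 60.5 CPM in BM. The part of the stroma and bone markers in the BM levels was not tested. Of 21 fibre assembly genes 18 were higher in MCC and 0 lower, the median log2 ratio being 6.53. For this and the next lists, the shares over all genes tested were 15.6% higher and 13.5% lower. Of 22 relatives 9 were higher and 1 lower, the bone sialoprotein gene Ibsp with 0.0231 CPM in MCC against 13.3 CPM in BM. Tgfbi, a relative of periostin known in monocytes and macrophages, had 102 CPM in MCC against 399 CPM in BM. Of 17 proteases and inhibitors 12 were higher and 1 lower, the gelatinase gene Mmp9, stored in neutrophils, with 14.6 CPM in MCC against 2069 CPM in BM. Receptors went both ways, 5 of 18 higher and 4 lower. Of 16 TGF-beta pathway genes 5 were higher and 0 lower, among them Tgfbr2 at 552 CPM against 79.2 CPM.

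Blood was the other native sample. MCC exceeded PB by 4-fold or more for 8 of the 10 genes, with 0 lower, beside 21.5% of 12545 tested genes higher and 15.4% lower, 36.9% in all. The median log2 ratio was 11.43, again with counts under 3 set to 3, beside 0.38 over all genes tested. Postn was 11939-fold (4663 to 43821) higher with 4 reads in PB, Sparc 5176-fold (3449 to 8165) and Spp1 3818-fold (2834 to 5275) higher. Fbn1 was 3396-fold (1648 to 8448) higher with 7 reads in PB. Thbs2, Tnc and Eln had 3, 2 and 1 reads in PB and ratios of 4714 (1613 to 22861), 3382 (936 to 27929.7) and 3362 (603 to 132815). Cthrc1, with 0 reads in PB set to 3 counts, was 132-fold higher. Its interval, computed from the 0 reads and not from the floor, ran from 107 with no upper limit.

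The 2 genes that blood shared with MCC were those of thrombospondin-1 and fibronectin. Thbs1 was 1.76-fold (1.74 to 1.78) higher in MCC at 2078 CPM against 1179 CPM, and Fn1 2.51-fold (2.48 to 2.55) higher at 1704 CPM against 678 CPM. Of 12 platelet and megakaryocyte markers, 2 reached 5 CPM in MCC, led by Pf4 at 248 CPM, and 11 in PB, where Gp1bb was at 0 reads, and their part in the Thbs1 level of PB was not tested. Among receptors, 5 of 18 passed on the higher side in MCC and 5 on the lower, including Itga4, a subunit of an integrin that binds fibronectin and osteopontin, at 28.95 CPM against 839 CPM and Cd44 at 98.2 CPM against 819 CPM. Of 21 fibre assembly genes 19 were higher and 1 lower, the transglutaminase gene Tgm2 at 23.8 CPM against 126 CPM. Over all genes tested, 21.5% were higher and 15.4% lower. Of 22 relatives 9 were higher and 1, Tgfbi, lower, of 17 proteases and inhibitors 13 were higher and 1, Mmp9, lower, and of 16 TGF-beta pathway genes 5 were higher and 3 lower.

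**Figure D3:**
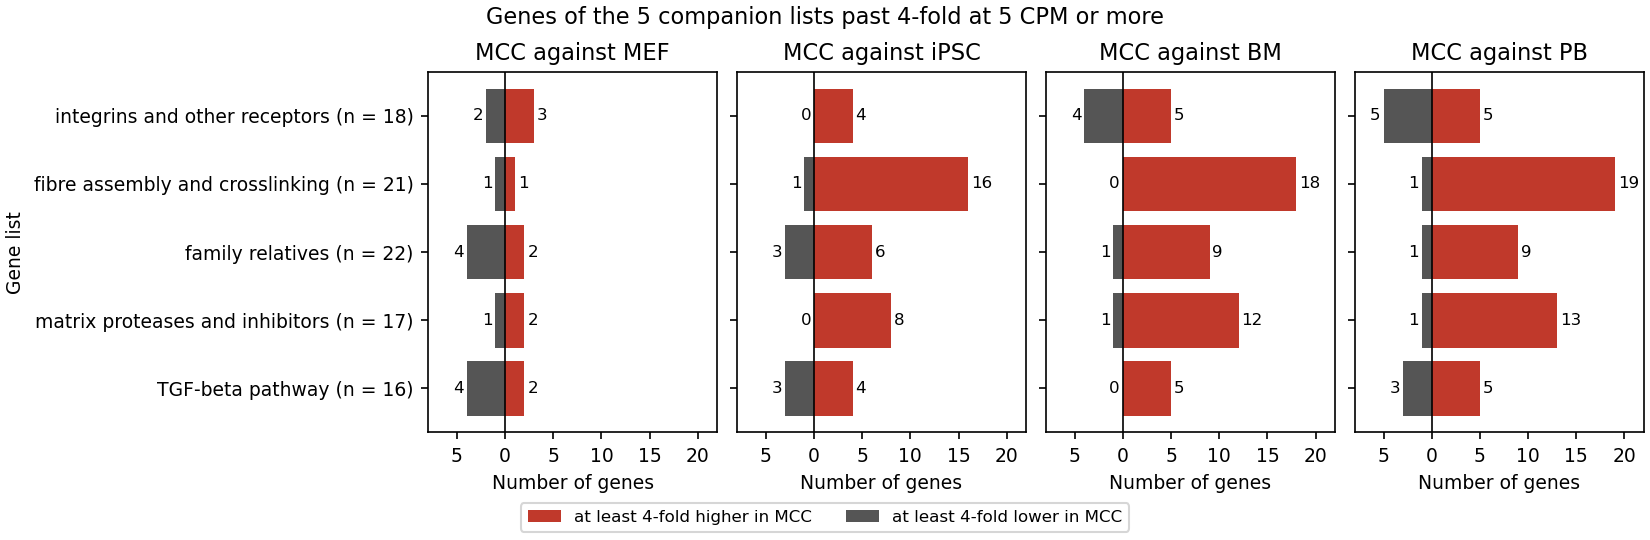
Number of genes of the 5 companion lists (rows, with the genes in the table as n) that were at least 4-fold higher (right of 0) or lower (left of 0) in MCC, in 1 panel for each other library. Fibre assembly genes pass on the higher side for 1 of 21 against MEF, 16 against iPSC, 18 against BM and 19 against PB. Over all genes tested, the higher shares are 8.05%, 11.3%, 15.6% and 21.5%, in the same order.

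Between iPSC and MEF, 7 of the 10 genes were at least 4-fold lower in iPSC and 0 higher, beside 6.37% of 11931 tested genes lower and 8.83% higher, 15.2% in all. The genes fell into separate ranges. Postn was at 0.0322% of its MEF level in iPSC, Thbs2 at 0.265%, Tnc at 1.85% and Cthrc1 at 5.58%. Eln was at 15.9%, Sparc at 21.8%, Fn1 at 22.3%, Spp1 at 34.8%, Fbn1 at 40.8% and Thbs1 at 80.6%, although Thbs1 came out slightly higher in iPSC when library sizes were taken from total counts alone. As ratios, Postn was 3109-fold (2377 to 4150.4), Thbs2 377-fold (323 to 442) and Tnc 54.0-fold (51.8 to 56.4) lower. Cthrc1 was 17.9-fold (15.8 to 20.4), Eln 6.30-fold (5.43 to 7.34), Sparc 4.58-fold (4.54 to 4.63) and Fn1 4.48-fold (4.44 to 4.51) lower, and Spp1, Fbn1 and Thbs1 did not reach 4-fold. With library sizes from total counts alone 5 of the 10 passed, Sparc and Fn1 falling short of 4-fold. The median log2 ratio of the 10 was -2.43, beside -0.11 over all genes tested. The 10 fibroblast markers stood in iPSC at between 0.102% (Lum) and 9.38% (Col3a1) of their MEF levels, with Col1a2 at 0.380%. The 6 members from Eln to Thbs1 therefore lay above the range of all 10 fibroblast markers, and Postn lay below it. Of 21 fibre assembly genes 17 were lower in iPSC and 0 higher, Lox at 7.54 CPM against 1772 CPM and Fbln2 at 134 CPM against 3117 CPM. Tgfb3 was at 5.36 CPM in iPSC against 182 CPM in MEF.

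Between PB and BM, 6 of the 10 genes reached 5 CPM in either library. Thbs1 was 7.13-fold (6.94 to 7.31) higher in PB, at 1179 CPM against 165 CPM, and was the 1 member higher, beside 6.32% of 11377 tested genes. Tnc was 316-fold (87.3 to 2617) lower with 2 reads in PB, Sparc 39.8-fold (26.4 to 63.0) lower, Fbn1 31.1-fold (14.9 to 78.1) lower and Spp1 12.02-fold (8.83 to 16.8) lower. These 4 lower genes stand beside 9.68% of tested genes, and 16.0% passed in either direction. Fn1 was 1.67-fold (1.64 to 1.70) lower, at 678 CPM against 1132 CPM, and the remaining 4 stayed under 5 CPM in both. Of the 12 platelet and megakaryocyte markers 1 passed as higher in PB, the collagen receptor gene Gp6 at 5.18-fold (4.02 to 6.73), and 0 as lower. The other markers at 5 CPM or more ranged from Gp9, level at 11.9 CPM in both, to Clec1b, 3.19-fold (2.66 to 3.83) higher in PB, with the granule protein gene Pf4 1.30-fold (1.17 to 1.45) and Ppbp 2.32-fold (2.14 to 2.52) higher. The 12 summed to 264 CPM in PB and 160.1 CPM in BM, and their part in the Thbs1 difference was not tested. The marrow stroma markers summed to 2.34 CPM in PB and 239 CPM in BM, with Cxcl12 at 0.234 CPM against 197 CPM, and their part in the 4 lower genes was not tested.

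The make-up of the set, taken per kilobase of exon so that levels can be compared between genes, differed from library to library. The summed level was 5243 CPM per kilobase in MCC, 4836 in MEF, 1508 in iPSC, 146 in BM and 253 in PB. Osteopontin made up 63.6% of it in MCC and 24.5% in MEF, while Sparc took 20.1% in MCC and 28.2% in MEF. Fibronectin took 2.78% in MCC, 10.7% in MEF, 7.63% in iPSC, 66.2% in BM and 22.9% in PB. Thbs1 took 6.53% in MCC, 16.1% in MEF, 41.7% in iPSC, 18.6% in BM and 76.6% in PB. MCC was thus dominated by Spp1, BM by Fn1 and PB by Thbs1. The level of Spp1 over that of Fn1, per kilobase, was 22.9 in MCC, against 2.30 in MEF and 3.59 for iPSC, and that of Fbn1 over Eln was 4.72 in MCC and 35.1 in MEF. Exon lengths span all annotated transcripts of a gene, so these levels shift with the transcripts in use.

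**Figure D4:**
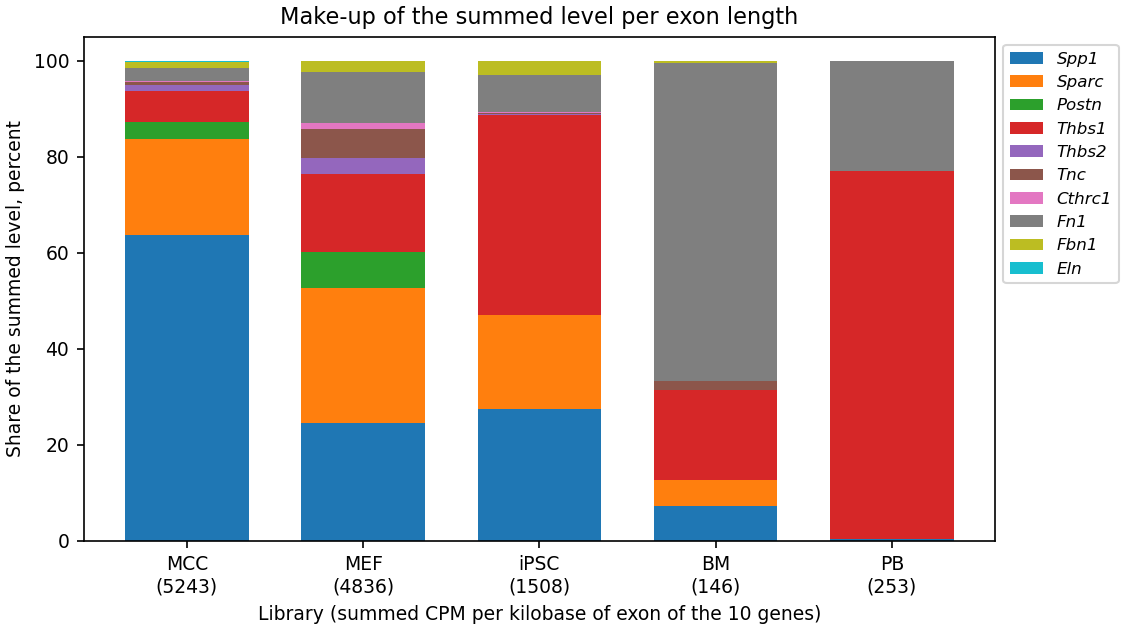
Share of each gene in the summed level of the 10 genes, as CPM per kilobase of exon, in percent; the sum stands in brackets under each library. Spp1 is the largest part in MCC (63.6%), Sparc in MEF (28.2%), Thbs1 in iPSC (41.7%) and PB (76.6%), and Fn1 in BM (66.2%).

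Profiles over the 5 libraries were compared as log2(CPM + 1), centred for each gene, by the root mean square distance among 10127 genes that reached 20 CPM, a description over 5 points. Within the set, Sparc and Fbn1 were closest, at 0.67 log2 units, then Spp1 and Sparc at 0.74, Spp1 and Fbn1 at 0.86, and Postn and Thbs2 at 1.07. The nearest gene to Spp1 and to Fbn1 was Fstl1, at 0.45 and 0.51. Sparc was nearest to Serpinh1, the collagen chaperone gene, at 0.63. Postn had Col5a2, a collagen gene, at 0.98 and the noncoding RNA gene Rian at 1.06, and Thbs2 had Lox at 0.39, Col5a2 at 0.44 and Rian at 0.70. Tnc was nearest to Igfbp7 at 0.89, Cthrc1 to Trib3 at 0.30, Tgfb3 at 0.37 and Twist2 at 0.39, and Eln to Rgma at 0.14 and Dclk1 at 0.30. Fn1 was nearest to Gnb4 at 0.12 and Vegfa at 0.16, and Thbs1 to Tulp4 at 0.36.

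In GENCODE M21 on mm10, Spp1 lies on chromosome 5, 104435118 to 104441050, and Eln on the same chromosome, 134702593 to 134747323. Fbn1 and Thbs1 share chromosome 2, at 125300594 to 125507993 and 118111876 to 118127133. Of the exon bases of Spp1, 18.75% also belong to Gm42793 on the same strand, and of those of Fbn1 20.1% lie opposite exons of Gm9913. Reads in such stretches may be uncounted or assigned otherwise, so both counts are uncertain to that extent. The overlapping genes had few reads of their own, 153 for Gm42793 beside 237459 for Spp1 in MCC, and 36 for Gm9913 beside 34391 for Fbn1. For Thbs1, Tnc, Fn1 and Eln the overlap with an opposite gene was 2.26% to 3.43% of exon bases, and for Sparc, Postn, Thbs2 and Cthrc1 it was 0.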

How the data were processed

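RNA was sequenced in 5 mouse libraries, 1 per group, from polyA RNA of Trizol extracts, per the labels' protocols. The authors deposited whole-number read counts per gene symbol, not normalized, in 1 table with 34970 symbols. Its 5 columns were assigned by library code, with 0 left unused. STAR, featureCounts and mm10 are named in the submitters' processing notes; versions, annotation, strand setting and filters were not stated in the sources used here.

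CPM values were computed from these counts on TMM-scaled library sizes over all 5 libraries (edgeR 4.0.16, R 4.3.3). Ratios, with counts under 3 set to 3 for the rule, and exact 95% conditional binomial (Clopper-Pearson) intervals were computed in Python 3.11.15 (numpy 2.4.6, pandas 2.3.3, scipy 1.17.1; figures, matplotlib 3.10.9). Without replicates no test was made: a gene was counted where its ratio reached 4-fold at 5 CPM or more in the higher library, over the whole table. The floor of 3 counts was 0.0694 CPM in MCC, 0.0694 in MEF, 0.0574 in iPSC, 0.0736 in BM and 0.100 in PB. Reads carried no stated molecular identifiers. The rule was run on simulated counts for 34970 genes in each of the 6 comparisons. It recovered all 100 genes made 8-fold higher and all 100 made 8-fold lower. These changes were set beyond the 4-fold rule, so their recovery checks only that the rule was applied as written. With 1 library per group, the spread between replicates could not be measured for the simulation. It therefore cannot show how often the rule would count a difference between replicates of the same group.

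Exon lengths and places came from GENCODE M21 (mm10), in which 33782 symbols had 1 entry, and promoters from RefSeq on GRCm38.p6. The members and lists were chosen with earlier results of these data known. Named were all members, from each companion list the 2 most abundant genes of either library compared, and the 3 nearest profiles per member, predicted genes left out; other genes were named after their values were seen, markers included. Of 97 listed companion genes, 94 were in the table. Alternatives were DESeq2 1.42.0 size factors, total counts, scaling without the 10 most abundant genes of each library, mitochondrial genes and haemoglobins, no filter or 20 CPM, 2-fold and 8-fold, the counting bound and, added after the data were seen, TMM without PB. The values of 1 companion gene are not reported here.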

Additional observations from a re-analysis of the deposited data

How the results depend on the processing

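No paired analysis was possible because each group had 1 library, and for the same reason no replicate could be left out. Of 104 alternative counts of members, 97 were within 1.5 times the count reported, and of 220 alternative ratios 148 stayed inside the counting interval, with a largest move of 0.39 on the log2 scale. With total counts and no further scaling, Fn1 turned to a log2 ratio of -0.052 for MCC over iPSC (0.34 as reported) and Thbs1 to 0.048 for iPSC over MEF (-0.31). That scaling moved the median of all genes by -0.39 for MCC over iPSC, 0.36 for iPSC over MEF, -0.14 for MCC over BM and -0.13 for MCC over PB. It gave 1161 higher and 1613 lower genes in MCC than iPSC, against 1410 and 1215, and 1358 higher and 594 lower in iPSC than MEF, against 1054 and 760. DESeq2 size factors moved the median by -0.28 for MCC over PB and 0.18 for PB over BM, and gave 5 companion genes higher in PB than BM in place of 3.

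Counts of members moved as follows. On total counts 5 were lower in iPSC than MEF in place of 7. At 2-fold, 2 were higher and 5 lower in MCC than MEF. At 8-fold, 0 were higher and 1 lower in MCC than MEF, 0 higher in PB than BM, and 4 lower in iPSC than MEF. At 20 CPM, 2 were lower in PB than BM.

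Companion genes moved at 2-fold to 22 higher and 30 lower (MCC than MEF), 15 lower (MCC than BM), 11 lower (MCC than iPSC), 10 higher (iPSC than MEF) and 13 higher (PB than BM). At 8-fold they were 6 higher and 5 lower (MCC than MEF), 3 lower (MCC than BM), 6 lower (MCC than PB), 3 lower (MCC than iPSC), 2 higher (iPSC than MEF) and 7 lower (PB than BM). At 20 CPM they were 3 higher (iPSC than MEF) and 4 lower (PB than BM), and with no filter 8 higher (iPSC than MEF) and 8 higher and 23 lower (PB than BM).

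Over all genes, the counts with no filter were 1851 higher and 885 lower (MCC than MEF), 3368 and 3666 (MCC than BM), 4219 and 4869 (MCC than PB), 2451 and 3242 (MCC than iPSC), 3136 and 1445 (iPSC than MEF), and 2169 and 2083 (PB than BM). At 2-fold they were 1773 and 1187, 3636 and 3088, 4839 and 3256, 3024 and 2389, 1962 and 1973, and 1824 and 2665, in the same order. At 20 CPM, 589 were higher and 162 lower (MCC than MEF), 1243 higher (MCC than BM), 1798 higher (MCC than PB), 613 lower (MCC than iPSC), 464 higher and 492 lower (iPSC than MEF), and 421 higher and 700 lower (PB than BM). At 8-fold, 627 were higher and 147 lower (MCC than MEF), 1066 lower (MCC than BM), 1678 higher and 1259 lower (MCC than PB), 809 lower (MCC than iPSC), 425 lower (iPSC than MEF), and 313 higher and 638 lower (PB than BM). These moves follow from how many genes each setting admits. TMM without PB was tried after the data were seen. Depth limits the ratios of members with few reads, 0 to 7 in PB and 1 for Cthrc1 in BM.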
